A study of Mus musculus and Homo sapiens with 65 samples.

Results

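The 10 genes described here encode subunits of Polycomb repressive complexes, and they were chosen by name: Ezh1, Ezh2, Eed, Suz12, Jarid2, Rnf2, Ring1, Bmi1, Pcgf1 and Pcgf6. All 10 were found among the 32287 genes of each expression table, and their RNA was followed across 9 RNA-seq libraries of mouse embryos grown in culture to the late 2-cell stage. The series holds 65 samples, most of them ChIP-seq and DNA methylation libraries of oocytes and embryos, which were not used here. Wild type was represented by 3 libraries of embryos for which no injection or drug is named. A mismatch control (2 libraries) came from zygotes injected at 0.5 days post coitum with fluorescein-tagged morpholinos, antisense oligonucleotides, whose Kdm5a and Kdm5b sequences carried 5-base mismatches. The Kdm5a+b morpholino group (2 libraries) received the matching oligonucleotides against both genes, which encode demethylases of histone H3 lysine 4. A further group (2 libraries) was treated with alpha-amanitin, an inhibitor of RNA polymerase II, with neither dose nor route stated in the labels. The labels name no strain, no number of embryos per library and no separate collections for the replicates. The p-values below therefore set group differences against how much these libraries vary, and part or all of that variation may be technical.

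Polycomb group proteins work as 2 families of complexes that keep genes silent. Polycomb repressive complex 2 (PRC2) methylates histone H3 at lysine 27: Ezh2 or Ezh1 is the methyltransferase, Suz12 the scaffold, Eed the subunit that binds the methylated histone tail and stimulates the enzyme, and Jarid2 an accessory subunit that helps bring the complex to chromatin. Polycomb repressive complex 1 (PRC1) ubiquitylates histone H2A through Rnf2 (RING1B) or Ring1 (RING1A), paired with 1 PCGF protein that sets the type of complex: Bmi1 in canonical PRC1, and Pcgf1 or Pcgf6 in variant forms. Oocytes store RNA and protein for the first divisions, much of the stored RNA is broken down after fertilization, and the mouse embryo starts its main wave of transcription at the 2-cell stage. Histone H3 lysine 27 methylation inherited from the oocyte silences the maternal copy of a small group of genes in early mouse embryos, a process called noncanonical imprinting.

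Promoters are shown for 3 members named in the alpha-amanitin results: Eed and Pcgf6 were lower with alpha-amanitin, and Suz12, the member with the most RNA, did not pass the test. Any link between promoter sequence and these results was not tested. Each sequence runs 5′ to 3′ from 250 to 11 bases before the RefSeq transcription start (build GRCm38.p6), with every CpG in capitals.
Eed, chr7:89980987-89981226, minus strand: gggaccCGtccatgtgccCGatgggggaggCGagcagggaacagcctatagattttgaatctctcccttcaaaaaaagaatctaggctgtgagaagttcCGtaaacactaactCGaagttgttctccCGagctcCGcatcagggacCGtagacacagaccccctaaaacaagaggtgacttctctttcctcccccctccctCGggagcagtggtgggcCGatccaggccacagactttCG
Pcgf6, chr19:47050917-47051156, minus strand: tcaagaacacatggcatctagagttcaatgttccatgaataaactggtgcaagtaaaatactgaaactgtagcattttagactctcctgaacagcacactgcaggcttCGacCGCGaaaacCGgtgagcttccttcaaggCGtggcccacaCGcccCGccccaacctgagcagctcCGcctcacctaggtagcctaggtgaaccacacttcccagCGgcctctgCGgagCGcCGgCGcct
Suz12, chr11:79992856-79993095, plus strand: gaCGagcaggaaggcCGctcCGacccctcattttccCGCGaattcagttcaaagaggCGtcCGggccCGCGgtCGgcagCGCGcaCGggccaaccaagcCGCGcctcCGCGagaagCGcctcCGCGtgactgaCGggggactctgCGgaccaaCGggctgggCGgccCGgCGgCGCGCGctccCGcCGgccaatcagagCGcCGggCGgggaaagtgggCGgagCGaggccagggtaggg
The stretch printed for Eed holds 11 CpG, that of Pcgf6 13 and that of Suz12 36. RefSeq windows were matched for 9 of the 10 members, Pcgf1 having none in the table used. Over the whole 250 bases before the start, the members held between 12 (Eed) and 37 (Suz12) CpG, against a median of 6 over all 32851 windows. Ezh1 and Pcgf6 had 14 each, Rnf2 20, Bmi1 21, Ezh2 23, Ring1 30, and the 2 starts of Jarid2 22 and 23. The E-box CACGTG, which reads the same on both strands, occurred once, in the window of Bmi1, and in 6.02% of all windows. TATAAA, searched on both strands, occurred in 1 of the Jarid2 windows and in 12.4% of all windows. These matches describe letters only.

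On mm10 coordinates from the tables, the PRC2 genes lie at chromosome 11, 101191115-101226463 (Ezh1, minus strand), chromosome 6, 47530274-47595341 (Ezh2, minus), chromosome 7, 89954656-89980983 (Eed, minus), chromosome 11, 79993106-80034123 (Suz12, plus) and chromosome 13, 44729474-44921643 (Jarid2, plus). The PRC1 genes lie at chromosome 1, 151458004-151500955 (Rnf2, minus), chromosome 17, 34020792-34024680 (Ring1, minus), chromosome 2, 18677018-18686629 (Bmi1, plus), chromosome 6, 83077869-83080855 (Pcgf1, plus) and chromosome 19, 47033619-47050845 (Pcgf6, minus). All 10 are protein-coding, and each value counts a whole gene. In GENCODE M21, Suz12 shares 12515 bases with the lincRNA Gm26563 on the other strand, Ezh2 shares 5039 with the lincRNA Gm26625, Eed shares 261 with E230029C05Rik and Rnf2 shares 158 with Trmt1l. On the same strand, Rnf2 shares 3029 bases with Gm36527 and Eed shares 408 with Gm45120, overlaps that counting by strand would not separate. The labels do not say whether counting used strand, and reads of such neighbours cannot be told apart from those of the members.

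Values are FPKM, a read measure corrected for gene length and sequencing yield, which allow levels of different genes to be compared per length but give shares of a library and not amounts per embryo. In whole embryos, fewer cells and less RNA per cell also cannot be told apart. The embryo identity was checked on 8 egg and 2-cell embryo markers, all found: the egg genes Gdf9, Bmp15, Zp3 and Nlrp5 were present in every library, and Zfp352, transcribed at the 2-cell stage, was 79.3 to 99.4 in wild type beside 1.77 and 3.05 with alpha-amanitin. Summed FPKM of 6 cumulus cell markers lay between 0.357 and 3.44, that of 6 blood markers reached 7.87 and that of 4 oviduct markers reached 8.38, with Hbb-bs, Hbb-bt and Krt5 at 0 in all 9 libraries. The 4 sperm markers summed to at most 5.96, in wild type replicate 3, with Prm1 at 0 throughout. Genes at 1 FPKM or more numbered 10611 to 11228 in the 7 libraries without alpha-amanitin and 7935 and 7977 with it. Kdm5a RNA was 12.8 and 9.44 in the mismatch control and 19.5 and 15.3 with the Kdm5a+b morpholino, and Kdm5b was 55.3 and 39.6 beside 38.1 and 27.6. A morpholino can block translation without removing its target RNA, so these levels do not test the label. The depth in reads is unknown. The printed bounds were not used as errors, because 20 of the 90 member values lie above the upper bound printed for them in the same table. These are 9 of 9 values for Rnf2, 5 each for Ezh2 and Suz12 and 1 for Eed. Over all genes, 707 to 945 lay above their own bound in injected libraries, 422 to 505 in wild type and 357 and 282 with alpha-amanitin. The bounds also differed in width between groups. Over 7494 genes their median half-width was 11.9 to 14.8% of the value in injected libraries. It was 18.7 to 19.4% in wild type and 21.5 and 24.4% with alpha-amanitin.

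In wild type embryos the PRC2 scaffold Suz12 had the most RNA per length of the 10 genes, and Ring1 was close to 0. Suz12 was 196, 227 and 182 FPKM in the 3 wild type libraries (202 ± 23.2, SD, n = 3), which placed it between the 99.61 and 99.78 percentile of all genes over the 9 libraries. Below it came Rnf2 (101 ± 18.9), Bmi1 (79.5 ± 21.7), Ezh2 (68.5 ± 14.7) and Jarid2 (64.0 ± 36.8). Lower again were Pcgf6 (38.4 ± 15.6), Eed (31.7 ± 9.67), Pcgf1 (13.1 ± 3.93) and Ezh1 (7.11 ± 2.45). Between neighbours in this order the ranges of the libraries separated only at Suz12 and Rnf2, at Eed and Pcgf1, and at Ezh1 and Ring1. The ranges of the other neighbours overlapped, which ignores that both genes come from the same libraries. Pcgf1 was above Ezh1 within each wild type library, at 12.7 and 5.99, 17.2 and 9.92, and 9.37 and 5.41. The remaining overlapping neighbours changed order between wild type libraries. Within PRC2, Suz12 thus stood above Eed and Ezh2 in all 3 wild type libraries, and of the PRC1 ligases Rnf2 was present while Ring1 was 0.220 FPKM in wild type replicate 1 and listed at 0 in the other two. Summed over the 10 genes, FPKM stayed between 523.5 and 635.7 in the 9 libraries.

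**Figure D1:**
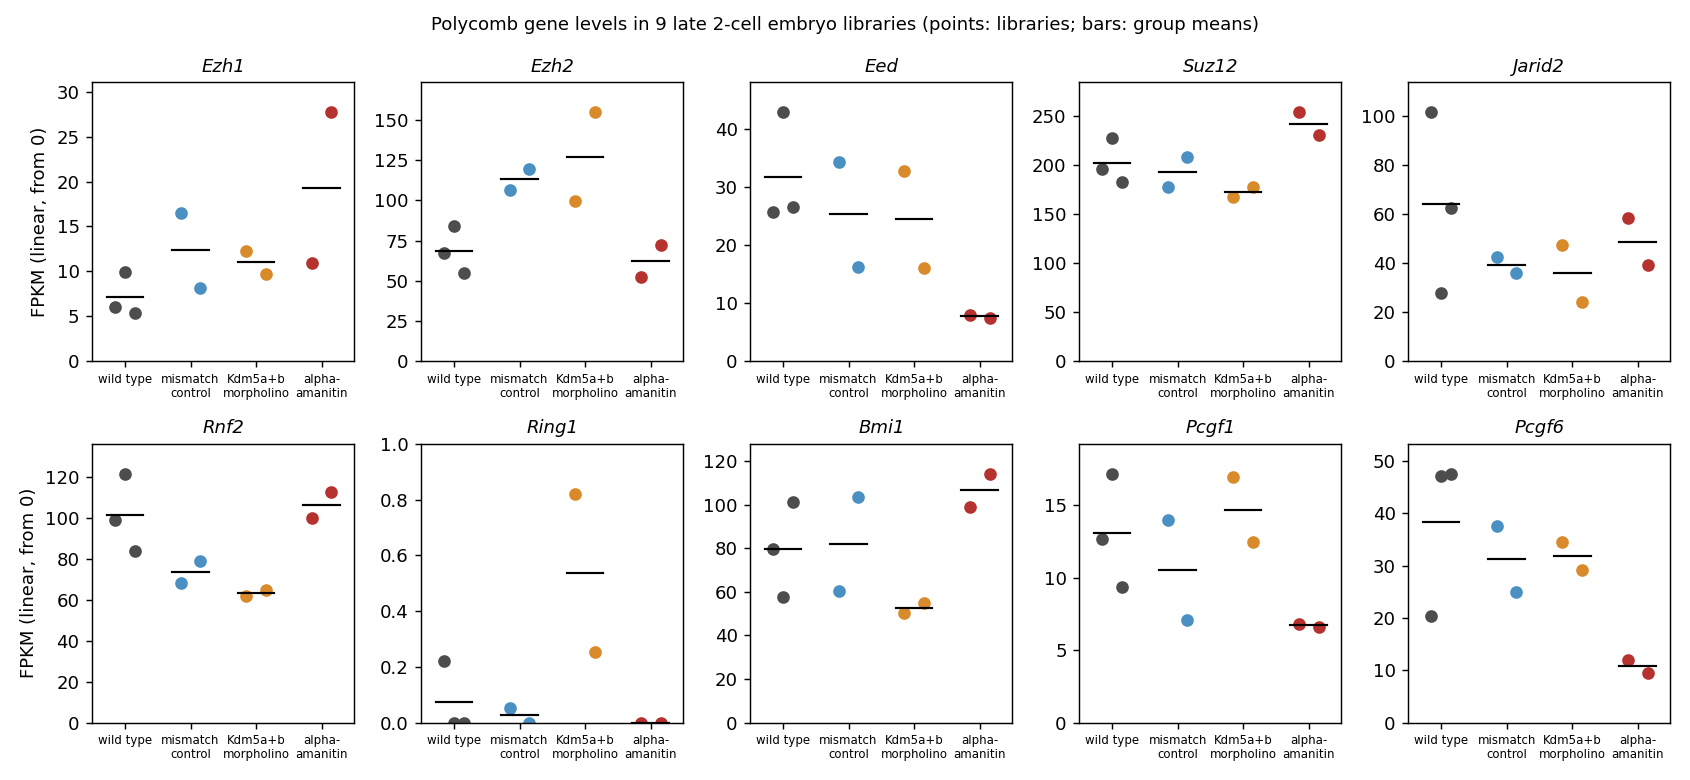
FPKM (linear axis from 0, its own scale in each panel) of the 10 Polycomb genes in 9 late 2-cell embryo libraries; points are libraries and bars are group means. Eed, Pcgf6 and Pcgf1 were lower in both alpha-amanitin libraries than in any other library. For Pcgf1 the margin was narrow (6.84 and 6.61 beside 7.09 in mismatch control replicate 2). All 4 morpholino-injected libraries were above wild type for Ezh2, and Ring1 stayed under 1 FPKM.

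The alpha-amanitin comparison asks how the members' RNA at the late 2-cell stage depends on RNA polymerase II. Against wild type, 2 of the 9 tested members fell, Eed of PRC2 and Pcgf6 of variant PRC1, and 0 rose, while Suz12, Rnf2, Bmi1, Ezh2 and Jarid2 did not pass the test. All 9 tested members were at 1 FPKM or more in every library, so none depended on the filter on low values (1 FPKM in 2 of 9 libraries), and Ring1 did not pass it. Of all 13137 genes tested by limma on log2(FPKM + 1), 25.1% were called lower and 4.31% higher at an adjusted p under 0.05 (two-sided, Benjamini-Hochberg over all tested genes), and 3 members had an unadjusted p under 0.05. The share of members called lower, 2 of 9, is near that background. The members' median change was -0.13 on the log2 scale beside -0.56 for all tested genes. Since the scale adds 1 to each value, it understates changes of low genes.

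Among the PRC2 members, Eed carried the difference. Eed was 25.6, 42.8 and 26.6 FPKM in wild type and 8.03 and 7.38 with alpha-amanitin. The alpha-amanitin libraries lay below every other library, the lowest of which was 16.1. The ratio of means was 4.11 in favour of wild type, and the log2 change was -1.87 (SE 0.42, limma adjusted p = 0.00743). Relative to the median of all genes, which a quantile normalization of the libraries moved from -0.56 to 0.17, this call was lost only under that normalization (log2 change -1.13, limma adjusted p = 0.0773) among 19 alternatives.

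Ezh2 and Suz12, the enzyme and the scaffold that Eed joins, did not pass the test. Ezh2 was 67.0, 83.9 and 54.7 FPKM in wild type and 52.3 and 72.4 with alpha-amanitin, and the ranges overlap (log2 change -0.13, SE 0.28, limma adjusted p = 0.754). Suz12 was 254 and 230 with alpha-amanitin, both just above the 182 to 227 of wild type (log2 change 0.27, SE 0.19, limma adjusted p = 0.322). Its sign turned under quantile normalization (-0.07). Jarid2 spread widely within wild type, at 101, 27.9 and 62.5, and its alpha-amanitin libraries (58.2 and 39.1) fell inside that range (log2 change -0.23, SE 0.49, limma adjusted p = 0.746).

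Ezh1, the second methyltransferase, was 5.99, 9.92 and 5.41 FPKM in wild type and 10.9 and 27.7 with alpha-amanitin. Both treated libraries were above all 3 wild type libraries, but they differed from each other more than the lower of them differed from wild type. The log2 change of 1.23 (SE 0.48, 95% interval 0.17 to 2.29) missed the threshold (limma adjusted p = 0.0778). Leaving out alpha-amanitin replicate 1 gave 1.87 (limma adjusted p = 0.0316) and leaving out replicate 2 gave 0.59 (limma adjusted p = 0.477), so the value rests on alpha-amanitin replicate 2. Ezh1 also passed the threshold when FPKM was rescaled to TPM (1.46, limma adjusted p = 0.0487) and under quantile normalization (1.89, limma adjusted p = 0.0131). Against the mismatch control instead of wild type its change was 0.54 (limma adjusted p = 0.489), the smallest among the alternatives.

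Of the PRC1 members, Pcgf6, the subunit of the PRC1.6 form that pairs with the DNA-binding proteins Mga and Max, fell. Pcgf6 was 20.4, 47.2 and 47.6 FPKM in wild type and 12.05 and 9.49 with alpha-amanitin. Even the low wild type replicate 1 was above both treated libraries. The ratio of means was 3.56 in favour of wild type, with a log2 change of -1.65 (SE 0.40, limma adjusted p = 0.00999). The call was kept in 15 of 19 alternatives. Those that ended it include leaving out alpha-amanitin replicate 2 (-1.50, limma adjusted p = 0.0641), quantile normalization (-1.03, limma adjusted p = 0.0787) and, narrowly, no filter on low values (limma adjusted p = 0.0501).

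Pcgf1, which directs the variant complex containing Kdm2b and Bcor, was 12.7, 17.2 and 9.37 FPKM in wild type and 6.84 and 6.61 with alpha-amanitin. Its groups did not overlap, yet the log2 change of -0.83 (SE 0.40) did not pass (limma adjusted p = 0.151), and under quantile normalization it was 0.04. Bmi1, the canonical PCGF subunit, was 79.5, 57.8 and 101 in wild type and 99.1 and 114 with alpha-amanitin (log2 change 0.45, SE 0.30, limma adjusted p = 0.293). The ligase Rnf2 was 98.6, 121 and 83.9 beside 99.8 and 112, with both treated libraries inside the wild type range (log2 change 0.08, SE 0.23, limma adjusted p = 0.821). In both alpha-amanitin libraries the table lists Ring1 at 0. Ranges were wholly above wild type for 2 of the 9 tested members, Ezh1 and Suz12, where 13.4% of all tested genes were, and wholly below for 3, Eed, Pcgf1 and Pcgf6, where 41.1% were.

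**Figure D2:**
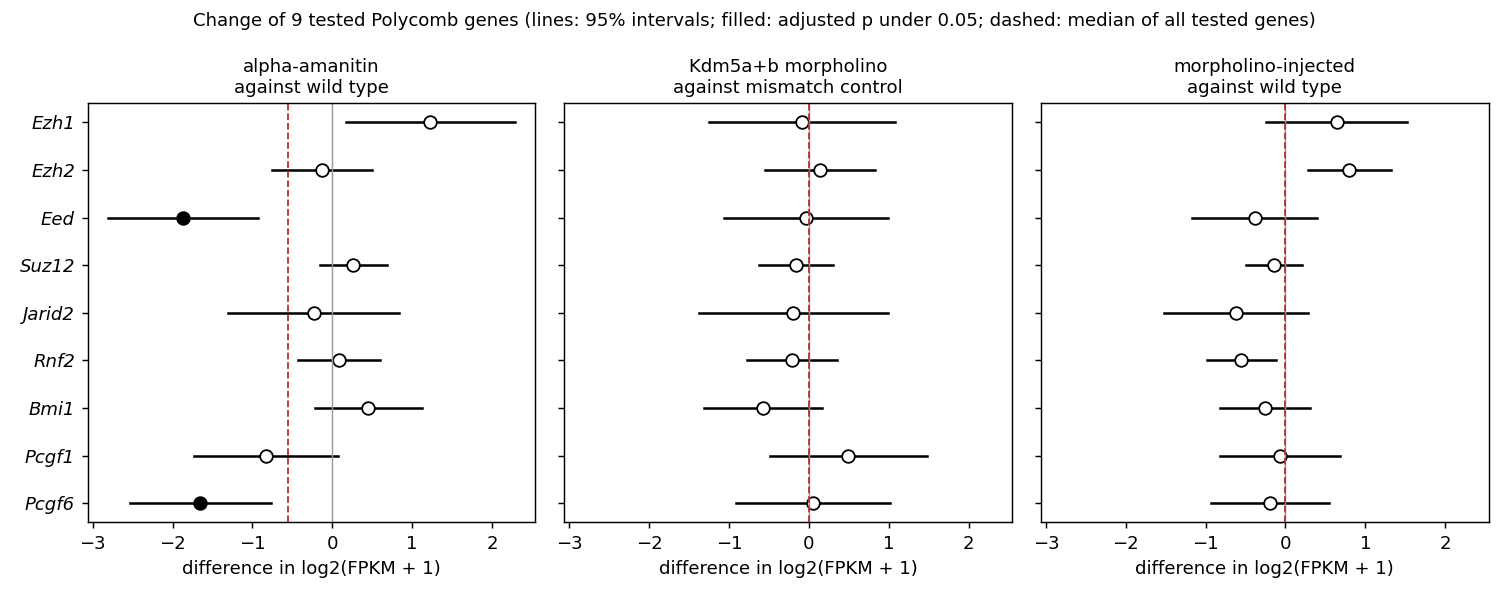
Difference in log2(FPKM + 1) of the 9 tested Polycomb genes in 3 comparisons; points are limma estimates, horizontal lines their 95% intervals, filled points have an adjusted p under 0.05 and the dashed line is the median of all tested genes. Eed (-1.87) and Pcgf6 (-1.65) with alpha-amanitin are the only filled points, and the other two panels hold none.

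The other subunits and the opposing enzymes were followed as 4 lists of 50 genes, 46 of them tested. With alpha-amanitin 4 of the 46 rose, 11 fell and 31 did not pass, with a median log2 change of 0.01. Over all tested genes 25.1% were lower and 4.31% higher, so the count of 11 lower of 46 lies near that background. Of 7 tested PRC2 partners 4 fell and 0 rose. Of 9 tested canonical PRC1 subunits 2 rose and 1 fell, of 19 variant PRC1 subunits 2 rose and 5 fell, the latter again near the share of all genes, and of 11 enzymes and partners that remove H2A ubiquitin or H3 lysine 27 methylation 1 fell. The median was -0.71 for PRC2 partners, 0.41 for canonical PRC1, -0.12 for variant PRC1 and 0.01 for the removing enzymes. Summed over the list, PRC2 partners came to 450.3 to 482.7 FPKM in the wild type libraries and 329.9 to 337.4 with alpha-amanitin. Canonical PRC1 subunits came to 205.4 to 328.5 beside 355.3 to 414.3. Variant PRC1 subunits overlapped, at 874.3 to 1829.5 beside 1193.2 to 1615.2, and the removing enzymes came to 417.3 to 507.3 beside 391.7 to 405.1. Single abundant genes weigh on such sums. Phc2, which did not pass, reached 173 in wild type and 196 with alpha-amanitin, and Auts2 ranged from 202 to 1194 in wild type.

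In PRC2, the partner Mtf2, a Polycomb-like protein that binds CpG-rich DNA, was 48.5, 130 and 56.9 FPKM in wild type and 17.6 and 8.14 with alpha-amanitin, so it fell in both libraries (log2 change -2.47, limma adjusted p = 0.00195). Rbbp7, a histone-binding subunit, was 69.2 ± 5.53 in wild type and 25.6 ± 9.11 with alpha-amanitin (-1.44, limma adjusted p = 0.00249). Its paralog Rbbp4 was low from the start, at 11.5, 1.47 and 11.0 in wild type and 1.30 and 0.166 with alpha-amanitin. Wild type replicate 2 was thus close to the treated libraries, and although the call passed (-2.13, limma adjusted p = 0.0410) it was lost when any 1 library other than wild type replicate 2 was left out, with limma adjusted p between 0.0597 and 0.224. Phf1, another Polycomb-like protein, was 149 ± 42.4 in wild type and 164 ± 7.09 with alpha-amanitin and did not pass.

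In variant PRC1, Pcgf5, the PCGF subunit of PRC1.5, was 15.9, 19.2 and 19.5 FPKM in wild type and 0.186 and 0.255 with alpha-amanitin, the most negative log2 change among the 46 genes (-3.97, SE 0.41, limma adjusted p = 5.29e-05). Bcor, a partner of Pcgf1, was 17.3 ± 2.13 in wild type and 1.10 ± 0.433 with alpha-amanitin (-3.13, limma adjusted p = 0.000194). Partners of Pcgf6 in PRC1.6 did not move as a group. L3mbtl2 fell, from 30.4, 11.5 and 14.5 in wild type to 1.74 and 0.437 with alpha-amanitin (-3.20, limma adjusted p = 0.000799), and so did Mga, from 95.6 ± 15.8 to 14.3 ± 5.43 (-2.69, limma adjusted p = 0.000145). The DNA-binding partners E2f6 (-1.59, limma adjusted p = 0.104) and Tfdp1 (0.55, limma adjusted p = 0.305) did not pass. Max, the DNA-binding partner of Mga, moved the other way: it was 69.9, 58.8 and 85.5 in wild type and 309 and 326 with alpha-amanitin, with no overlap (2.15, limma adjusted p = 5.97e-05). Among canonical PRC1 subunits Phc1, a polyhomeotic protein that links complexes together, rose from 12.04 ± 4.71 to 41.0 ± 5.56 (1.74, limma adjusted p = 0.00419). Against the mismatch control instead of wild type its change was 1.01 (limma adjusted p = 0.0883).

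Cbx7, a chromodomain protein that reads methylated H3 lysine 27, fell from 14.1, 8.25 and 3.95 FPKM to 3.18 and 1.34 with alpha-amanitin (log2 change -1.50, limma adjusted p = 0.0439). Its wild type libraries spread from close to the treated ones upwards, and the call was lost without any 1 library other than wild type replicate 3 or alpha-amanitin replicate 1, with limma adjusted p between 0.0663 and 0.245. The chromodomain protein Cbx2 (46.4 ± 11.9 and 56.2 ± 7.88), the polyhomeotic protein Phc2 (136 ± 47.5 and 175 ± 29.7) and the demethylase Kdm6a (45.6 ± 5.66 and 58.3 ± 6.83) did not pass. Calls for Rbbp7, Mtf2, Pcgf5, Bcor, L3mbtl2, Mga and Max were kept in all 19 alternatives, including quantile normalization.

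Another 5 of the called genes were named after their values were seen, to complete the counts. AU022751, annotated as Ezhip, an inhibitor of PRC2, was 122 ± 9.56 FPKM in wild type and 74.2 ± 2.42 with alpha-amanitin (log2 change -0.71, limma adjusted p = 0.0273). Usp16, an H2A deubiquitinase, and Usp7, a deubiquitinase found with variant PRC1, were also called lower (-0.88 and -0.76), and the variant PRC1 subunit Skp1a and the canonical subunit Scmh1 were called higher (0.93 and 0.85). Each of these 5 calls was lost without alpha-amanitin replicate 2, where the limma adjusted p was 0.0905 for AU022751, 0.245 for Usp16, 0.210 for Usp7, 0.240 for Skp1a and 0.205 for Scmh1. Other single libraries, among them wild type replicate 3, ended the same calls.

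**Figure D3:**
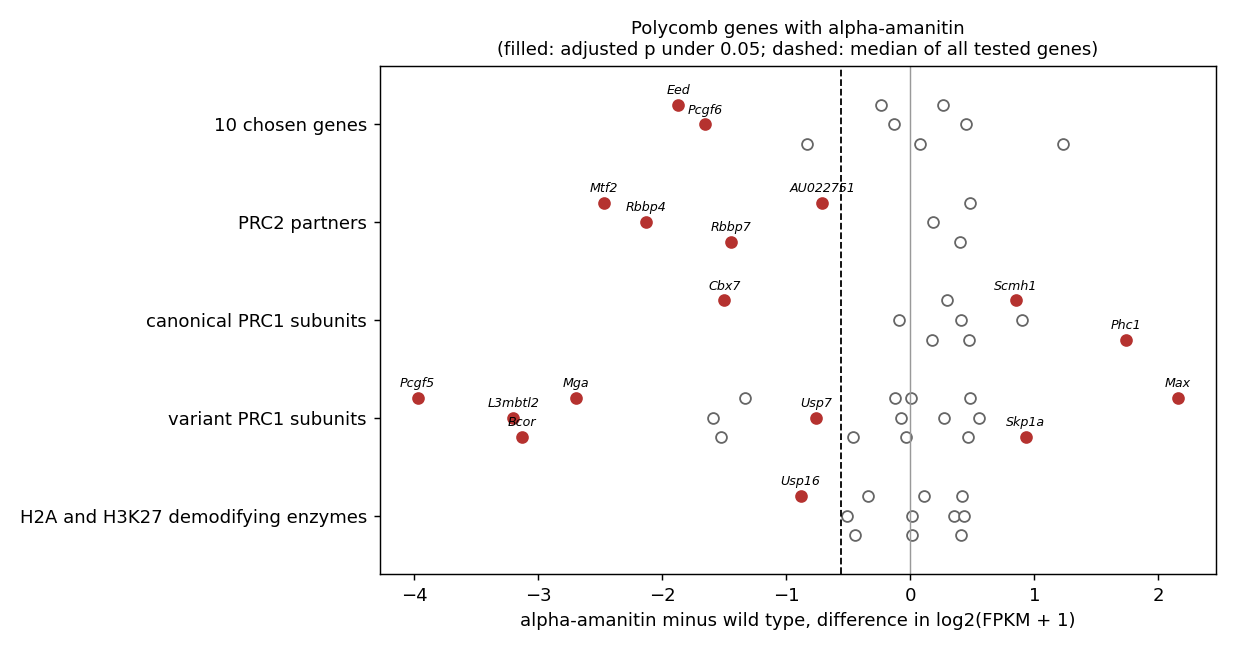
Difference in log2(FPKM + 1), alpha-amanitin minus wild type, for the tested genes of the 10 chosen members and of 4 wider Polycomb lists; filled points have a limma adjusted p under 0.05 and are named, and the dashed line is the median of all tested genes (-0.56). Pcgf5 (-3.97) lies farthest to the left and Max (2.15) farthest to the right.

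Genes that Polycomb is known to silence were looked at in the same libraries. Of 5 noncanonically imprinted genes 3 were tested, and Jade1 fell from 6.80, 10.5 and 5.01 FPKM to 0.364 and 0.405 with alpha-amanitin (log2 change -2.55, limma adjusted p = 0.00141, kept in all 19 alternatives). The imprinted genes Gab1 (-1.57, limma adjusted p = 0.102) and Sfmbt2 (-0.93, limma adjusted p = 0.301) did not pass. Of 39 Hox genes, which specify position along the body axis later in development, 10 were tested, and 3 were listed at 0 in all 9 libraries. Hoxb9 was called lower, at 3.86, 1.35 and 1.68 FPKM in wild type and at a listed 0 in each alpha-amanitin library (limma adjusted p = 0.0321), and the call was lost without wild type replicate 1 (0.0777 as a limma adjusted p) or without either alpha-amanitin library. Hoxa7, named after its values were seen, was called higher, at 13.2, 22.1 and 10.1 beside 43.8 and 32.0 (1.32, limma adjusted p = 0.0251). Its call was lost without wild type replicate 1 or 3 or either alpha-amanitin library, with limma adjusted p between 0.0502 and 0.144.

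The Kdm5a+b morpholino group was compared with the mismatch control, which carries the same injection with altered oligonucleotides. By limma 0 of 9 tested members and 0 of 13137 genes (0%) were called, with 0 members and 414 genes at an unadjusted p under 0.05. The members' log2 changes lay between -0.58 (Bmi1) and 0.50 (Pcgf1), with a median of -0.09 beside 0.003 for all genes. Both extremes turned on the mismatch control libraries: without replicate 1 of that group Bmi1 was -0.97 and Pcgf1 0.94, and without replicate 2 they were -0.19 and 0.048. With 2 libraries against 2, intervals were wide, and the lack of calls does not show equal levels. Bmi1 was 60.4 and 104 FPKM in the mismatch control and 50.2 and 55.1 with the Kdm5a+b morpholino (log2 change -0.58, 95% interval -1.32 to 0.16).

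In the other PRC1 genes the groups lay closer. Rnf2 was 67.9 and 78.6 FPKM in the mismatch control and 61.8 and 64.7 with the Kdm5a+b morpholino (log2 change -0.21, SE 0.25). Pcgf1 was 14.0 and 7.09 beside 16.9 and 12.4 (0.50, SE 0.44), and Pcgf6 was 37.6 and 25.0 beside 34.4 and 29.2 (0.05, SE 0.44). Ring1, not tested, was 0.0527 and 0 in the mismatch control and 0.818 and 0.254 with the Kdm5a+b morpholino. The groups of these low values did not overlap, and all stayed under 1 FPKM.

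For the PRC2 members, Eed was 34.3 and 16.3 FPKM in the mismatch control and 32.8 and 16.1 with the Kdm5a+b morpholino, so that the 2 libraries of a group differed far more than the groups. In both groups replicate 1 was the higher library. Whether a replicate number marks a shared batch is not stated in the labels and was not tested for Eed. Ezh2 was 107 and 119 beside 99.6 and 155 (log2 change 0.14, SE 0.31), and Ezh1 was 16.5 and 8.19 beside 12.2 and 9.76 (-0.09, SE 0.52). Suz12 was 178 and 208 beside 167 and 177 (-0.16, SE 0.21), and Jarid2 was 42.4 and 35.9 beside 47.4 and 24.3 (-0.19, SE 0.53). Of the 9 tested members 0 lay wholly above the mismatch control, where 16.5% of tested genes did, and 3, Bmi1, Rnf2 and Suz12, lay wholly below it, where 16.8% did. By limma 0 of the 46 further Polycomb genes were called in this comparison; 2 had an unadjusted p under 0.05.

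All 4 morpholino-injected libraries were also compared with wild type, which shares its 3 libraries with the alpha-amanitin comparison and takes injection and oligonucleotides together. By limma 0 of 9 tested members and 0 of 13137 genes (0%) were called, with 2 members and 903 genes at an unadjusted p under 0.05. The first of the 2 members was Ezh2, at 67.0, 83.9 and 54.7 FPKM in wild type and 107, 119, 99.6 and 155 in the injected libraries. Every injected library was above every wild type library (120 ± 24.5, n = 4, and 68.5 ± 14.7, n = 3), with a log2 difference of 0.80 (SE 0.24, 95% interval 0.28 to 1.32) that did not pass over all genes (limma adjusted p = 0.633). Over the alternatives this difference ranged from 0.64 to 0.96. Both alpha-amanitin libraries, at 52.3 and 72.4, lay below all 4 injected libraries. All 4 injected values of Ezh2 lie above their own printed upper bound, as do 1 of 3 in wild type and 0 of 2 with alpha-amanitin, and the part of this in the difference was not tested.

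Rnf2 was the other, at 98.6, 121 and 83.9 FPKM in wild type and 67.9, 78.6, 61.8 and 64.7 in the injected libraries, all 4 below the 3 wild type values. Its log2 difference was -0.55 (SE 0.19, 95% interval -0.98 to -0.12, limma adjusted p = 0.633), and it ranged from -0.68 to -0.41 over the alternatives. For Rnf2 all 9 values, wild type included, lie above their printed bound. Of the 9 tested members 1, Ezh2, thus lay wholly above wild type, where 4.12% of all tested genes did, and 1, Rnf2, wholly below, where 4.10% did. The remaining members overlapped wild type, with log2 differences from -0.62 (Jarid2) to 0.64 (Ezh1). Jarid2 was -0.20 without wild type replicate 1, -1.11 without wild type replicate 2 and -0.38 without Kdm5a+b morpholino replicate 2, and Ezh1 was 0.41 without mismatch control replicate 1. The members' median was -0.19 beside -0.005 for all genes. Of the 46 further Polycomb genes 0 were called by limma, and 5 had an unadjusted p under 0.05. Among these, Phc1 (log2 difference 0.86) and Max (0.76) were higher, and Foxk2 (-0.81), Lcor (-0.74) and Cbx2 (-0.66) lower. For Max, at 94.2, 119, 145 and 128 FPKM, all 4 injected libraries were above wild type, as both alpha-amanitin libraries were.

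The balance between the alternative methyltransferases was read within each library, which removes any scaling of the whole library apart from the added 1. In wild type Ezh2 FPKM was 11.2, 8.46 and 10.1 times Ezh1 FPKM, in the mismatch control 6.47 and 14.6 times, with the Kdm5a+b morpholino 8.14 and 15.9 times, and with alpha-amanitin 4.80 and 2.61 times. The alpha-amanitin ratios were the lowest of all 9 libraries. The log2 ratio of (FPKM + 1) was 1.36 lower in alpha-amanitin than in wild type (-1.36, with group means of 1.76 and 3.12). An exact two-sided permutation test gave p = 0.2, and 0.6 after adjustment over 3 pairs of related genes. For 3 libraries against 2, 0.2 is the smallest p that the form of permutation test used can give. Without alpha-amanitin replicate 1 the difference was -1.77, and without replicate 2 it was -0.96.

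The 2 variant PCGF genes gave a log2 ratio of Pcgf1 to Pcgf6 of -0.64, -1.40 and -2.23 in wild type and -0.73 and -0.46 with alpha-amanitin. The treated values lay at the upper end of a wide wild type range (difference 0.82, exact permutation p = 0.4, adjusted p = 0.6). For Rnf2 and Ring1 the ratio is set mostly by Rnf2, since Ring1 was listed at 0 in 5 of 9 libraries (difference 0.18, exact permutation p = 0.6, adjusted p = 0.6).

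**Figure D4:**
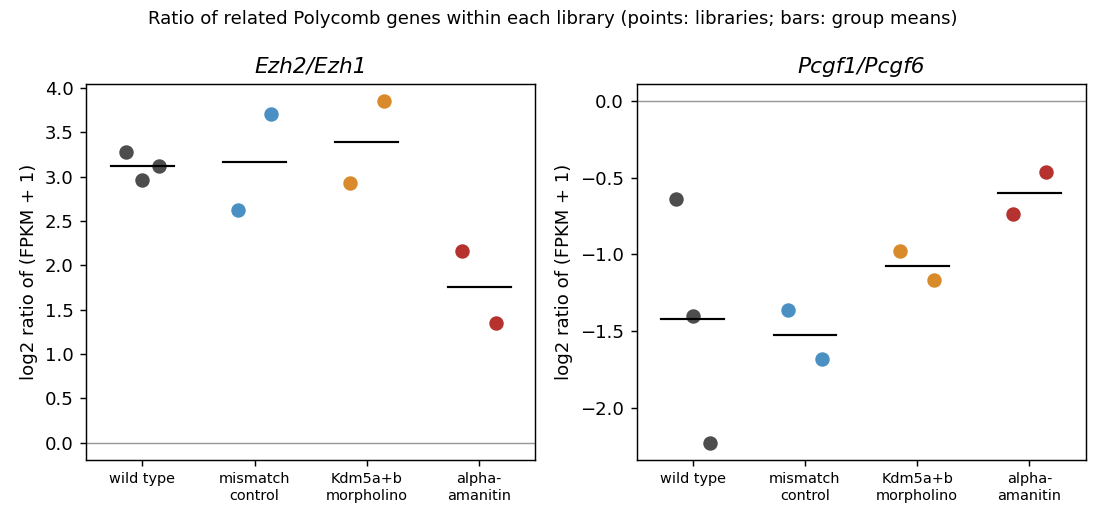
Log2 ratio of (FPKM + 1) between Ezh2 and Ezh1 (left) and between Pcgf1 and Pcgf6 (right) in each library; points are libraries, bars are group means and the grey line at 0 marks equal values. For Ezh2 over Ezh1 the alpha-amanitin libraries (2.16 and 1.35) lie below the 7 others, whose lowest is 2.62.

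Over the 9 libraries some members moved together, described by Pearson's r of log2(FPKM + 1) with no test, since the groups and library scaling are shared. Eed and Pcgf6, the members that fell with alpha-amanitin, had r = 0.90, and Eed and Pcgf1 had r = 0.87. Bmi1 and Pcgf1, alternative PCGF subunits, ran in opposite order (r = -0.92), and Suz12 and Rnf2 had r = 0.83. These pairs were picked as those with the largest absolute r among the tested members. The libraries include those with alpha-amanitin, in which Eed and Pcgf6 were called lower, so their r partly restates that difference. Among 13136 other tested genes, the 3 most like Eed were Hspa1b (r = 0.98), Gm12615 (0.98) and Pde12 (0.98), and 347 genes reached 0.9. For Pcgf6 they were Bzw2 (0.98), Gm4943 (0.98) and Gm6274 (0.98), with 542 genes reaching 0.9. The patterns of Ezh1, Ezh2 and Rnf2 had far fewer like genes, with 8, 12 and 9 at 0.9 or more: Scaper (0.95), Ptprj (0.94) and Col6a3 (0.93) for Ezh1, Nespas (0.94), Gm5466 (0.93) and Ttc33 (0.93) for Ezh2, and Med28 (0.95), Nol4l (0.94) and Dnah7b (0.93) for Rnf2. Ring1 was not tested and has no such list.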

How the data were processed

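The authors deposited 1 table per library with FPKM per gene, on mm10, with a status and lower and upper bounds for each value, per the file headers. BWA, Cufflinks, Picard, SAMtools, Trimmomatic and Bismark 12.5 are named in the submitters' processing notes, without the role each had; which tool aligned the RNA reads, and the annotation and strand setting, were not given in the sources used. Another 4 RNA-seq samples and the ChIP-seq and methylation samples were not analysed here.

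The 10 members, the wider gene lists and the tests were chosen with earlier results of these data known. Values were taken as log2(FPKM + 1). Genes at 1 FPKM or more in at least 2 of 9 libraries (13137) were fitted with limma 3.58.1 (R 4.3.3), with 1 mean per group over all 9 libraries (5 residual degrees of freedom), moderated variances with a trend, two-sided p-values and Benjamini-Hochberg adjustment over all tested genes, called under 0.05. The fit was also run on simulated data with known changes. That outcome is not reported here, so the share of true changes each comparison could find is not stated. Single ratios were tested by exact permutation. FPKM is relative, so a drop in many genes raises the rest. The depth in reads is unknown. All 10 members are reported, with called genes of the wider lists (the 12 with the largest absolute change where more were called) and, for likeness, the 3 tested genes with the highest Pearson r. RefSeq promoter windows (GRCm38.p6) gave the sequences. Replicate numbers were compared over groups, and whether they pair libraries is not stated in the labels. Alternatives were another pseudocount, 2 other filters, TPM, quantile normalization, fewer groups, a replicate block, other variance settings, another reference group and leaving out each library.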

Additional observations from a re-analysis of the deposited data

How the results depend on the processing

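With alpha-amanitin, 2 members were called lower; the count was 1 with no filter on low values, 1 with a replicate block and 0 under quantile normalization, and 1 to 2 when each library was left out in turn. The count called higher was 1 as TPM and 1 under quantile normalization, and 0 to 1 when each library was left out. The block takes the shared replicate number as a term. Same-numbered deviations correlated little over all tested genes (between -0.0477 and 0.0410). This cannot exclude a batch shared by same-numbered libraries, and the labels do not say what a number marks. Under the block Pcgf6 was -1.46 (limma adjusted p = 0.0514). That log2 change equals the value without wild type replicate 3, the only library with its number (limma adjusted p = 0.0380 there). Over all genes, 566 were called higher and 3299 lower, against 1716 and 1806 under quantile normalization. The higher count was 371 with the block, 339 with only the groups compared, 310 with the mismatch control as reference, and 362 and 298 without alpha-amanitin replicates 1 and 2.

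Members that passed no test changed sign under some settings. With alpha-amanitin, Ezh2 was 0.018 as TPM, Suz12 -0.067, Rnf2 -0.074 and Pcgf1 0.042 under quantile normalization, Rnf2 -0.047 with the replicate block, and Jarid2 0.28 against the mismatch control. In the Kdm5a+b comparison Pcgf6 was -0.033 as TPM. For injected against wild type, Bmi1 was 0.030 with the mismatch control only and Pcgf6 0.0052 with the block. Leaving out each library gave, with alpha-amanitin, -0.36 to 0.10 for Ezh2, -0.73 to 0.18 for Jarid2 and -0.047 to 0.22 for Rnf2. In the Kdm5a+b comparison it gave -0.55 to 0.38 for Ezh1, -0.18 to 0.45 for Ezh2, -0.55 to 0.48 for Eed, -0.66 to 0.28 for Jarid2 and -0.24 to 0.33 for Pcgf6. For injected embryos it gave -0.29 to 0.15 for Pcgf1 and -0.59 to 0.0052 for Pcgf6. The Ezh2 to Ezh1 difference ranged from -1.77 to -0.96, and that of Rnf2 to Ring1 was 0.64 with a pseudocount of 0.1. The cause of these shifts was not tested. With no filter, 17 genes were called higher and 10 lower in the Kdm5a+b comparison and 11 higher in injected embryos, where 0 were in the main analysis; leaving out 1 library gave at most 3 either way in both. No member was among them. With 2 or 3 libraries per group and no read depth, small changes cannot be resolved.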
